A study of Mus musculus with 6 samples.

Results

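The genes described here are the 10 rows of the deposited liver table named Plin2, Plin3, Plin4, Plin5, Cidea, Cideb, Cidec, Pnpla2, Pnpla3 and G0s2, chosen by gene name from 54532 rows. They encode the proteins that coat and fuse lipid droplets and those that release or hold back the triglyceride inside. RNA-Seq was made from the livers of 3 gSpns1-cKO and 3 control mice, 1 library per mouse. SPNS1 is a lysosomal transporter of lysolipids. The study asked which lipids SPNS1 releases from the lysosome and what its loss does in mice. It used RNA-Seq of the liver to look for pathways altered by the lipid accumulation. The gSpns1-cKO mice were Spns1 fl/fl animals carrying Rosa26Cre-ERT2, a Cre recombinase present in the whole body and switched on by tamoxifen, given at 50 mg/kg on postnatal days 11, 13 and 15 to remove exon 3. The deletion is therefore not limited to hepatocytes or to the liver. The methods describe the controls as floxed littermates without Cre, whereas the sample labels give their genotype as WT. Whether the controls also received tamoxifen is not stated in the methods, and effects of tamoxifen or of Cre itself were not tested. All mice were on a C57BL/6 background. The age at which these livers were collected was not given in the sources used here. The labels do not state the sex, and the Y-linked Ddx3y had at least 1731 counts and Xist at most 5 in each of the 6 libraries, so both groups had the male pattern.

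Hepatocytes store surplus fatty acids as triglyceride in lipid droplets, which are oil cores under a single layer of phospholipid. Perilipins coat this surface. PLIN2 is the main coat protein of the hepatocyte, PLIN3 moves between the cytosol and new droplets, PLIN4 is best known from fat and muscle, and PLIN5 ties droplets to mitochondria in tissues that burn fat. The CIDE proteins act where droplets touch and pass lipid from the smaller to the larger droplet, while CIDEB, the form typical of the liver, also takes part in the loading of very low density lipoprotein. PNPLA2, also called ATGL, removes the first fatty acid from triglyceride. ABHD5 activates it and G0S2 binds and inhibits it. PNPLA3 is a relative of PNPLA2 that sits on droplets and whose gene is switched on by feeding and carbohydrate.

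The libraries held between 30350002 and 35295611 counts, and the detection floor of 3 counts was worth 0.0762 to 0.118 CPM. CPM are counts divided by the TMM-scaled library size in units of 1e+06, a scaling that sets the typical gene at no change. The TMM factors ran from 0.834 to 0.873 in control livers and from 1.16 to 1.18 in gSpns1-cKO livers. Spns1, the targeted gene, was at 40.4 ± 8.97 CPM in control livers and 22.1 ± 7.39 in gSpns1-cKO livers (SD, n = 3 mice each), a log2 fold change of -0.87 (SE 0.25, adjusted p = 0.0300). The counts cover the whole gene, of which only exon 3 was targeted, so they do not measure how complete the deletion was. By Western blot, the paper showed a reduced SPNS1 protein band in gSpns1-cKO livers. All adjusted p-values were computed with edgeR's quasi-likelihood test and corrected by Benjamini-Hochberg over the 15449 genes tested, with 0.05 as the threshold. Spns1 did not pass under scaling by library size only (-0.43, adjusted p = 0.213), nor without control replicate 2 (adjusted p = 0.0785), gSpns1-cKO replicate 1 (0.0910) or gSpns1-cKO replicate 3 (0.0830). That scaling also set the median of all genes at 0.46 in place of 0.014 on the log2 scale and changed the split of calls from 3286 higher and 3166 lower to 7289 higher and 970 lower. Upper-quartile scaling set the median at 0.14, with 4111 genes higher and 2240 lower. Changes below are relative to TMM scaling, and none of the 10 genes changed direction under the other scalings. In whole liver, fewer cells of a type and less RNA per cell cannot be told apart.

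The promoters of 4 of these genes are shown, because they are the 3 genes with the largest falls among the 10 that passed the test below (G0s2, Cidec and Plin2) and the 1 that rose (Plin3). RefSeq (GRCm38.p6) gave windows of 300 bases around the start of 9 of the 10 genes, 11 windows in all, and each sequence below runs 5′ to 3′ on the strand of the gene and ends just before the start. All 4 genes lie on the minus strand. G0s2 is at chr1:193273189-193273438, Cidec at chr6:113435761-113436010, Plin2 at chr4:86670058-86670309 and Plin3 at chr17:56290512-56290761. The Plin2 stretch includes the first bases of the transcript, so that a motif over the start is whole. Cidec has a second window, and the one ending at the start of the gene in the deposited table is shown. Capitals mark the matches in these stretches to the motifs searched.
G0s2: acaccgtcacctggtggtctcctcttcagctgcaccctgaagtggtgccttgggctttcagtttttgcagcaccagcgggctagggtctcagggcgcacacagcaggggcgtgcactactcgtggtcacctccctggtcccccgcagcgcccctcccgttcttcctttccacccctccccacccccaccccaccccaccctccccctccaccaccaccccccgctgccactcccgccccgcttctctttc
Cidec: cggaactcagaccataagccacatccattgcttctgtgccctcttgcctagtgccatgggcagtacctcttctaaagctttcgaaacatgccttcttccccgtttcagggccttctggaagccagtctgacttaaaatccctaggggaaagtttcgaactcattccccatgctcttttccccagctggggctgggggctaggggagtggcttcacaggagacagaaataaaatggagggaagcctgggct
Plin2: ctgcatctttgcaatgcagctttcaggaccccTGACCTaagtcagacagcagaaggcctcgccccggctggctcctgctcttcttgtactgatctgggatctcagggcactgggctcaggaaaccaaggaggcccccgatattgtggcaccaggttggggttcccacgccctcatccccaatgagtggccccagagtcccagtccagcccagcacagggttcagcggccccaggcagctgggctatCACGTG
Plin3: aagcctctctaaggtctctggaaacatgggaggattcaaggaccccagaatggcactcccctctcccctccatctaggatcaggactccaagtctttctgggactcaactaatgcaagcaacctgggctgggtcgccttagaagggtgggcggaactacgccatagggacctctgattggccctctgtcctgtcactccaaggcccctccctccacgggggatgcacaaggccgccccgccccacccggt

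The motifs searched on both strands were AGGTCA, the half-site read by PPAR with its partner RXR, its direct repeat with 1 base between the copies (DR1), the E-box CACGTG and the TATA box TATAAA. Plin2 held AGGTCA on the reverse strand, at position -218, and CACGTG at position -4, counted from the start of transcription to the first base of the match. Plin5 held AGGTCA in both of its windows and Cideb held TATAAA at position -172. No member window held DR1. Of 32851 mouse promoter windows of the same length, 16.3% held AGGTCA, 0.0396% DR1, 7.15% CACGTG and 13.6% TATAAA. These are matches of letters and not measured binding sites.

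Of the 10 genes, all passed the filter on low counts, 5 were lower in gSpns1-cKO livers (Plin2, Cideb, Cidec, Pnpla2 and G0s2), 1 was higher (Plin3) and 4 did not pass the test (Plin4, Plin5, Cidea and Pnpla3). Over all genes tested, 41.8% passed, 20.5% lower and 21.3% higher. Without control replicate 1, 7 of the 10 were lower and 2 higher, with Plin5, Cidea and Pnpla3 past the threshold. The median log2 fold change of the 10 genes was -0.89, against 0.014 over all genes tested, and it was -0.45 under scaling by library size only. The groups did not overlap for 6 genes that were lower and 1 that was higher. Of all genes tested, 54.1% had no overlap, 27.0% lower and 27.1% higher. Together the 10 genes took 0.0858% to 0.0971% of the counts in control libraries and 0.0603% to 0.0702% in gSpns1-cKO libraries.

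**Figure D1:**
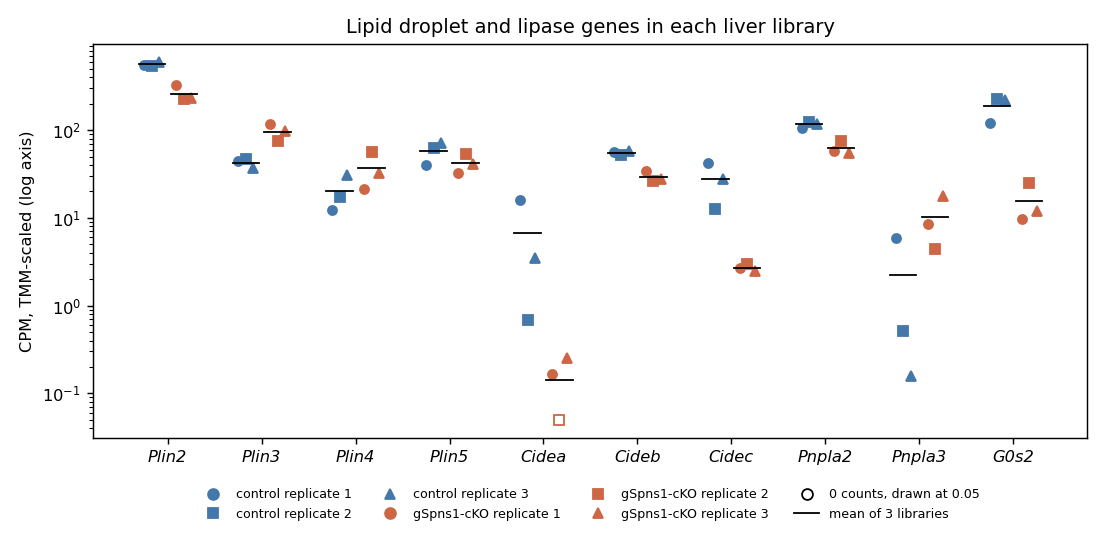
TMM-scaled CPM on a log axis of each of the 10 genes in each liver, with control mice in blue, gSpns1-cKO mice in orange and a bar at the mean of 3 libraries. G0s2 and Cidec sit about a decade lower in all 3 gSpns1-cKO livers, Plin3 sits higher in all 3, and Cidea and Pnpla3 spread widely among the control livers.

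Among the perilipins, Plin2 fell and Plin3 rose. Plin2 (ENSMUSG00000028494, chr4:86648386-86670060, minus strand), the coat protein gene with the most reads here, was at 548, 533 and 599 CPM in control livers 1, 2 and 3 and at 323, 224 and 232 CPM in gSpns1-cKO livers. Each gSpns1-cKO liver was below each control liver, and gSpns1-cKO liver 1 was the highest of its group. The means were 560 ± 35 and 260 ± 55.2 CPM, a log2 fold change of -1.11 (SE 0.16, adjusted p = 0.000558).

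Plin3 (ENSMUSG00000024197, chr17:56277476-56292873, minus strand), which encodes the perilipin that also exists free in the cytosol, was at 44.6, 46.7 and 36.8 CPM in control livers and at 116, 74.2 and 96.9 CPM in gSpns1-cKO livers. All 3 gSpns1-cKO values lay above the control values. Its mean rose from 42.7 ± 5.23 to 95.8 ± 21 CPM, or 2.24-fold (log2 fold change 1.16, SE 0.17, adjusted p = 0.000532). Plin3 was the only 1 of the 10 genes that passed the test in this direction. The RefSeq start used for its promoter lies 2362 bases inside the start of the gene in the deposited table.

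Plin4 and Plin5 lie 1797 bases apart on chromosome 17 and 159879 bases separate Plin5 from Plin3, so 3 of the 4 perilipin genes lie near each other. Plin4 (ENSMUSG00000002831, chr17:56100591-56109803, minus strand) was at 12.3, 17.5 and 30.8 CPM in control livers and at 21.2, 57.0 and 32.6 CPM in gSpns1-cKO livers. The groups overlapped, since control liver 3 was above gSpns1-cKO liver 1, and the change did not pass the test (log2 fold change 0.87, SE 0.52, adjusted p = 0.242). Plin5 (ENSMUSG00000011305, chr17:56111601-56117596, minus strand), the perilipin of fat-burning tissues, was at 40.3, 63.1 and 70.6 CPM in control livers and at 32.5, 53.3 and 40.9 CPM in gSpns1-cKO livers. These groups overlapped too, and the log2 fold change of -0.45 (SE 0.25) had an adjusted p of 0.189. The call for Plin5 turned on the settings, because it passed with the replicate number as a block (-0.44, adjusted p = 0.0270), with a filter of at least 1 count in any library (-0.46, adjusted p = 0.00291) and without control replicate 1 (-0.67, adjusted p = 0.0265). With library size only its log2 fold change was -0.01.

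All 3 CIDE genes had no overlap between the groups, each lower in gSpns1-cKO livers, and 2 of them passed the test. For comparison, 27.0% of all genes tested were lower without overlap. Cidec (ENSMUSG00000030278, chr6:113424634-113435760, minus strand), also called Fsp27, encodes the fusion protein of large droplets. It was at 42.6, 12.5 and 27.4 CPM in control livers and at 2.67, 2.97 and 2.49 CPM in gSpns1-cKO livers. The control livers differed among themselves by more than the gSpns1-cKO livers did, and the lowest control value was still above every gSpns1-cKO value. The means were 27.5 ± 15.1 and 2.71 ± 0.241 CPM, 10.2-fold higher in control livers (log2 fold change -3.34, SE 0.49, adjusted p = 0.00406). Leaving out 1 mouse at a time gave Cidec log2 fold changes from -3.70 to -2.89.

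Cideb (ENSMUSG00000022219, chr14:55754050-55758458, minus strand), the CIDE gene of hepatocytes, was at 55.9, 51.6 and 57.2 CPM in control livers and at 34.4, 26.4 and 27.8 CPM in gSpns1-cKO livers. Its mean fell from 54.9 ± 2.94 to 29.5 ± 4.25 CPM (log2 fold change -0.90, SE 0.12, adjusted p = 0.000325). Control values for Cideb lay close together and none reached the gSpns1-cKO range. Cideb shares 1451 bases with Nop9 on the opposite strand, which had between 586 and 822 counts in the 6 libraries.

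Cidea (ENSMUSG00000024526, chr18:67343564-67367794, plus strand), known from brown fat and from the fatty liver, was counted 452, 21 and 88 times in the control livers and 6, 0 and 10 times in the gSpns1-cKO livers. In CPM these were 16.1, 0.682 and 3.48 against 0.167, 0 and 0.254. Control liver 1 held most of the control reads, and the lowest control liver was still above the highest gSpns1-cKO liver. The log2 fold change of -5.54 (SE 1.66) missed the threshold with an adjusted p of 0.0547. Other settings moved Cidea across the threshold, with -3.85 (adjusted p = 0.0261) without control replicate 1, -6.09 (adjusted p = 0.0156) without control replicate 2, -5.27 (adjusted p = 0.000829) with the replicate block and -5.58 (adjusted p = 0.00268) in DESeq2. B430212C06Rik, a transcript on the opposite strand that shares 540 bases with Cidea, had 7 to 58 counts.

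The lipase gene Pnpla2 and the gene of its inhibitor, G0s2, both fell. Pnpla2 (ENSMUSG00000025509, chr7:141455198-141460743, plus strand) was at 107, 124 and 117 CPM in control livers and at 57.6, 75.6 and 54.6 CPM in gSpns1-cKO livers. The 3 gSpns1-cKO livers were all below the control livers. The means were 116 ± 8.44 and 62.6 ± 11.4 CPM, a log2 fold change of -0.88 (SE 0.14, adjusted p = 0.000731).

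G0s2 (ENSMUSG00000009633, chr1:193272161-193273217, minus strand) had the largest change among those of the 10 genes that passed the test. Its level was 120, 228 and 222 CPM in control livers and 9.69, 25.1 and 12.1 CPM in gSpns1-cKO livers. Control liver 1 was the lowest of its group and was still far above gSpns1-cKO liver 2, the highest of the other group. The means were 190 ± 60.9 and 15.6 ± 8.31 CPM, 12.1-fold higher in control livers (log2 fold change -3.60, SE 0.50, adjusted p = 0.00391), and leaving out each mouse gave log2 fold changes from -4.12 to -3.35. The whole of G0s2 lies inside Lamb3, a laminin gene on the opposite strand, with 197, 263 and 237 counts in the control group and 84, 130 and 109 in the gSpns1-cKO group. Whether counting used the strand was not given in the sources used here, but the control counts of G0s2 were 3367, 7032 and 5613, far above those of Lamb3 in any library, and its gSpns1-cKO counts were 349, 965 and 475.

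Pnpla3 (ENSMUSG00000041653, chr15:84167837-84187236, plus strand) was at 5.97, 0.519 and 0.158 CPM in control livers and at 8.42, 4.45 and 17.7 CPM in gSpns1-cKO livers. The groups overlapped only through control liver 1, which was above gSpns1-cKO liver 2. The log2 fold change was 2.20 (SE 1.31) and did not pass the test (adjusted p = 0.256). Without control replicate 1 it was 4.83 (adjusted p = 0.0207), and in limma-voom it was 3.36 (adjusted p = 0.0370). Fasn, the fatty acid synthase gene, was also high in control liver 1, with 2210 CPM against 747 and 623 in the other control livers and 2340, 1040 and 3020 CPM in gSpns1-cKO livers. Fasn was chosen after its values were seen, and its part in the Pnpla3 and Cidea values was not tested.

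**Figure D2:**
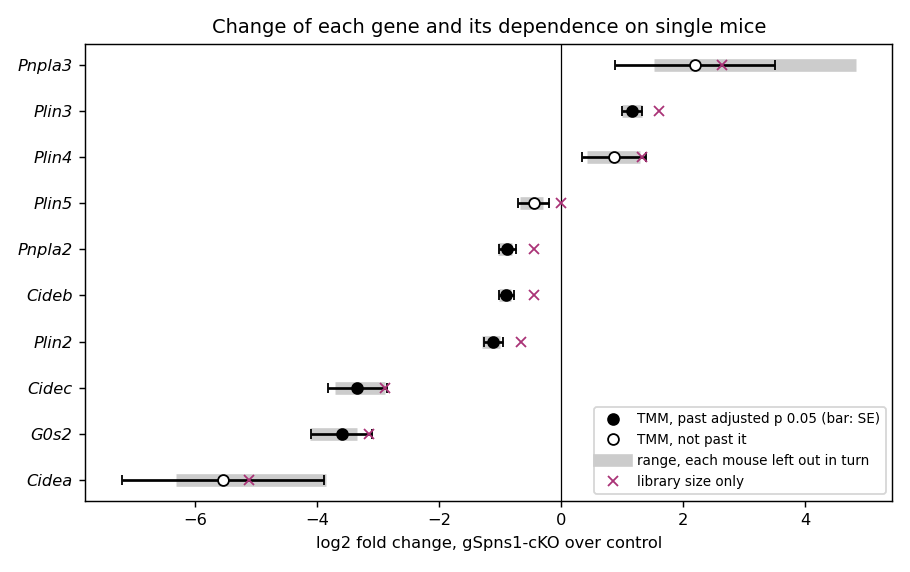
Log2 fold change of gSpns1-cKO over control for each gene, with the standard error as a thin bar, the range over fits that leave out 1 mouse as a grey band and the value under library size scaling as a cross. Filled circles mark the 6 genes past the threshold. The bands of Cidea and Pnpla3 are the widest, and no band or cross lies on the other side of 0 from its circle.

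The balance of G0s2 and its partner lipase was compared within each library, which does not depend on scaling between libraries. The ratio of G0s2 to Pnpla2 in counts per length was 3.89, 6.40 and 6.59 in control livers and 0.584, 1.15 and 0.767 in gSpns1-cKO livers. Per length, G0s2 thus stood above Pnpla2 in each control liver and in 1 of 3 gSpns1-cKO livers. In counts not divided by length, G0s2 was above Pnpla2 in every control liver and below it in every gSpns1-cKO liver. The mean log2 ratio was 2.45 ± 0.43 in control livers and -0.32 ± 0.49 in gSpns1-cKO livers, a difference of -2.77 (p = 0.1 in a two-sided exact permutation test, which cannot go lower with 3 against 3 mice). The ratio of Cidec to Plin2, fusion protein to coat protein, was 0.147, 0.0445 and 0.0865 in control livers and 0.0157, 0.0252 and 0.0204 in gSpns1-cKO livers. Its mean log2 ratio differed by -2.05 between the groups, from -3.60 ± 0.87 to -5.64 ± 0.34 (p = 0.1 in the same exact test), with the control values again all above the gSpns1-cKO values.

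Expressed as a share of the summed reads per length of the 10 genes, G0s2 made up 31.2%, 48.3% and 44.7% in control livers and 5.50%, 14.8% and 7.68% in gSpns1-cKO livers. Plin3 made up 2.68%, 2.28% and 1.71% in control livers and 15.2%, 10.1% and 14.2% in gSpns1-cKO livers. The share of Plin3 thus stood above, and that of G0s2 below, the control range in each gSpns1-cKO liver. Plin2 held 31.1% ± 3.87 in control livers and 38.3% ± 6.56 in gSpns1-cKO livers, and these groups overlapped. Its log2 share differed by 0.29 per length but by -0.17 when counts were not divided by length, so no direction is given for it. Plin4 held 0.660% ± 0.242 in control livers and 3.33% ± 1.64 in gSpns1-cKO livers without overlap, although its level overlapped between the groups. Shares of 1 whole are tied to each other, so a fall in G0s2 by itself raises the others, and Cideb and Pnpla2, whose levels fell, held larger shares in gSpns1-cKO livers (10.3% and 10.8%) than in control livers (7.23% and 7.46%). Without division by length, their log2 shares differed by 0.05 and 0.06.

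**Figure D3:**
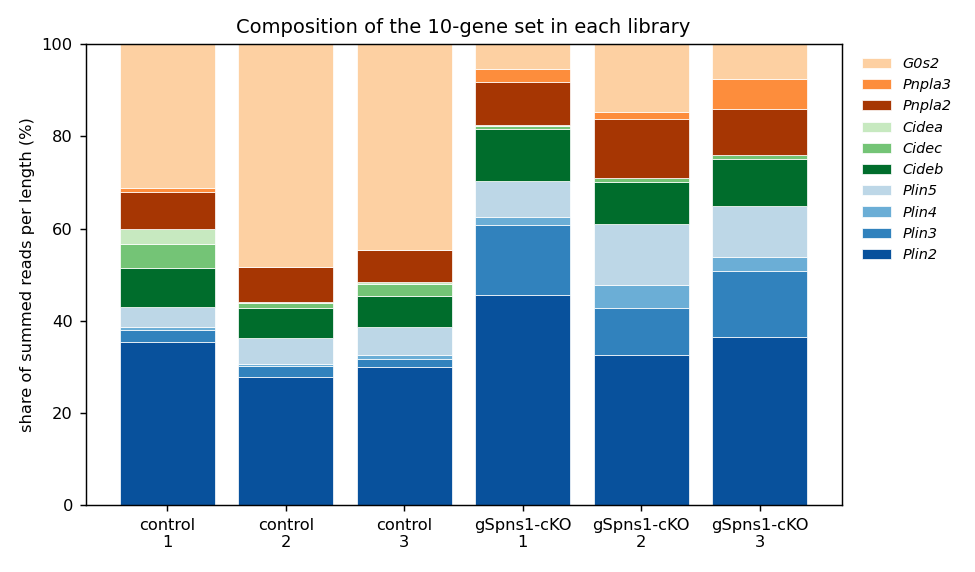
Stacked bars of the share, in percent, of each of the 10 genes in their summed reads per length, 1 bar per liver. The G0s2 block fills 31.2% to 48.3% of each control bar and 5.50% to 14.8% of each gSpns1-cKO bar, and the Plin3 block is visibly wider in all 3 gSpns1-cKO bars.

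The order of the genes by reads per length (CPM per kilobase of gene length) also differed between the groups. In control livers G0s2 stood first at 218 ± 69.9, followed by Plin2 at 159 ± 9.97, and these neighbours changed places between livers. Plin2 was above Pnpla2 (38.3 ± 2.79) in every control liver, and Cideb (36.9 ± 1.98) above Plin5 (27.8 ± 7.56), whereas no other pair of neighbours kept its order in all 3. Cidec, Plin3, Cidea, Plin4 and Pnpla3 followed at 14.8, 11.3, 5.79, 3.50 and 1.43. In gSpns1-cKO livers Plin2 stood first at 74 ± 15.7, above Plin3 in every liver. Plin3 was next by its mean of 25.3 ± 5.56, but in gSpns1-cKO liver 2 it was below G0s2, Plin5 and Pnpla2. Pnpla2, Plin5, Cideb and G0s2 lay close together at 20.7, 20.3, 19.8 and 17.9, with no fixed order. Pnpla3 and Plin4, at 6.59 and 6.39, also changed places between livers, while Plin4 was above Cidec (1.46 ± 0.130) and Cidec above Cidea (0.121 ± 0.111) in each of them.

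Other proteins of the droplet surface and of droplet formation were taken from a list of 20 genes, of which 19 could be tested, 7 were lower, 2 were higher and 10 did not pass. The median log2 fold change of the list was -0.25, against 0.014 over all genes tested. With library size only these medians were 0.20 and 0.46. The sign of the list median thus changed with the scaling, while it lay below the median of all genes under both. Fitm1, whose product helps newly made triglyceride to leave the endoplasmic reticulum as droplets, was at 122, 79.9 and 91.2 CPM in control livers and at 3.83, 3.65 and 2.62 CPM in gSpns1-cKO livers. The groups lay far apart, at 97.9 ± 22.0 and 3.37 ± 0.654 CPM, 29.1-fold higher in control livers (log2 fold change -4.86, SE 0.21, adjusted p = 1.30e-06). Its relative Fitm2 fell from 98.6 ± 12.6 to 45.5 ± 4.65 CPM (log2 fold change -1.11, adjusted p = 0.000120). Dhrs3, a retinal reductase found on droplets, fell from 182 ± 10.1 to 97.3 ± 16.4 CPM (adjusted p = 0.000587). Bscl2, which encodes seipin, the protein at the junction of droplet and endoplasmic reticulum, fell from 67.4 ± 3.42 to 37.5 ± 4.95 CPM (adjusted p = 0.000374). The higher genes were Tmem159, which encodes the seipin partner promethin (log2 fold change 0.82, adjusted p = 0.0210), and Vps13c, which encodes a lipid transfer protein (0.41, adjusted p = 0.0144). The 2 were named because they were the only ones, and the count of higher genes was 0 without control replicate 3, 1 without control replicate 1 or 2 or gSpns1-cKO replicate 3, and 3 without gSpns1-cKO replicate 2. Abhd5, the activator of PNPLA2, was at 24.8 ± 5.33 CPM in control livers and 21.5 ± 1.35 in gSpns1-cKO livers (log2 fold change -0.21, adjusted p = 0.298). Hilpda, another inhibitor of PNPLA2, was at 2.46 ± 0.245 and 2.89 ± 0.288 CPM (log2 fold change 0.23, adjusted p = 0.423), and it passed the test only under library size scaling (0.68, adjusted p = 0.0274).

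Of 18 other lipases and cofactors for neutral lipids, 17 were tested, 9 were lower, 1 was higher and 7 did not pass, with a median log2 fold change of -0.95 (-0.50 with library size only). Lpl, the lipoprotein lipase of the vessel wall, was at 12.9, 13.1 and 14.1 CPM in control livers and at 234, 367 and 282 CPM in gSpns1-cKO livers. It was the 1 gene of this list that rose, 22.1-fold (log2 fold change 4.46, SE 0.18, adjusted p = 2.84e-07). Lipe, the hormone-sensitive lipase that acts on diacylglycerol after PNPLA2, fell from 24.6 ± 3.07 to 6.83 ± 1.73 CPM (log2 fold change -1.85, adjusted p = 6.10e-05). Mgll, which takes the last fatty acid off the glycerol, fell from 202 ± 21.1 to 75.5 ± 17.7 CPM (log2 fold change -1.42, adjusted p = 0.000225). The genes of all 3 steps of cytosolic lipolysis (Pnpla2, Lipe and Mgll) were thus lower. Among lipases outside this path, Ces1f, a liver carboxylesterase with close paralogs that can share its reads, fell from 548 ± 87.4 to 86.2 ± 15.7 CPM (adjusted p = 7.35e-06). Lipg, the endothelial lipase, fell from 28.8 ± 14.9 to 5.32 ± 1.67 CPM (adjusted p = 0.00844).

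The 17 genes of triglyceride synthesis had 6 lower, 2 higher and 9 that did not pass, with a median log2 fold change of 0.07 (0.51 with library size only). Gpd1, which supplies glycerol 3-phosphate, fell from 463 ± 45.6 to 162 ± 23.3 CPM (log2 fold change -1.51, adjusted p = 5.31e-05). The acyltransferase genes Gpat4 and Agpat2 fell from 322 ± 33.8 to 120 ± 8.41 CPM and from 247 ± 16.3 to 119 ± 11.3 CPM (adjusted p = 3.42e-05 and 0.000141). Mogat1, which esterifies monoacylglycerol, fell from 86, 29 and 43 counts in the control group to 2, 4 and 2, near the floor, in the gSpns1-cKO group (adjusted p = 0.000236). Dgat1, which makes the final step to triglyceride, fell from 32.6 ± 1.72 to 21.6 ± 1.09 CPM (log2 fold change -0.60, adjusted p = 0.00133), a call lost with library size only (-0.16, adjusted p = 0.250). Dgat2, which carries out the same step with an unrelated protein, was at 580 ± 40.5 and 461 ± 119 CPM and did not pass (log2 fold change -0.33, adjusted p = 0.173), except without gSpns1-cKO replicate 3 (-0.55, adjusted p = 0.0410). Agpat4 (log2 fold change 0.92, adjusted p = 0.0284) and Agpat5 (0.42, adjusted p = 0.0218) were the higher ones, and were named for that reason. The count of higher genes was 1 without control replicate 2 or 3 or gSpns1-cKO replicate 2 or 3.

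Of 14 transcription factors and coactivators known to act on genes of droplets and fat use, 8 were lower, 1 was higher and 5 did not pass, with a median log2 fold change of -0.52 (-0.07 with library size only). Creb3l3, a factor of the fasted liver, fell from 404 ± 59.3 to 159 ± 13.5 CPM (log2 fold change -1.35, adjusted p = 8.79e-05), and Rxra, the partner of PPAR, fell from 550 ± 81.9 to 302 ± 29.9 CPM (-0.87, adjusted p = 0.00147). Ppara, the PPAR of hepatocytes, fell from 68.1 ± 10.4 to 47.7 ± 4.53 CPM (-0.51, adjusted p = 0.00997), but not past the threshold with library size only (-0.07, adjusted p = 0.670). Pparg, the PPAR of fat cells and fatty liver, was at 17.4 ± 2.23 and 17.2 ± 1.85 CPM (log2 fold change -0.01, adjusted p = 0.958), and its sign changed with the scaling. The coactivator gene Ppargc1a rose from 9.37 ± 1.45 to 23.1 ± 8.93 CPM (1.30, adjusted p = 0.00822), while Ppargc1b fell from 4.07 ± 1.31 to 1.80 ± 0.790 CPM (-1.18, adjusted p = 0.0192). The call for Ppargc1b was lost without control replicate 1, gSpns1-cKO replicate 2 or gSpns1-cKO replicate 3 (adjusted p = 0.0566 to 0.0712) and with library size only (0.0925).

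Several of the 10 genes are known to follow feeding and fasting, and the feeding state at collection was not given in the sources used here. Of 14 genes that fasting raises in liver, 9 were lower, 2 were higher (Ppargc1a and Pdk4) and 3 did not pass, with a median log2 fold change of -1.06 (-0.61 with library size only). Acot1, an acyl-CoA thioesterase, fell from 45.1 ± 10.7 to 2.81 ± 1.26 CPM (log2 fold change -4.01, adjusted p = 0.000506). Angptl4, an inhibitor of lipoprotein lipase, fell from 286 ± 46.3 to 39.4 ± 19.9 CPM (-2.86, adjusted p = 0.00326). Vnn1 fell from 52.9 ± 12.4 to 13.3 ± 3.81 CPM (adjusted p = 0.000601), and Pck1, an enzyme of glucose production, from 3610 ± 605 to 1170 ± 524 CPM (adjusted p = 0.00520). Pdk4, named as 1 of the 2 higher genes, spares glucose by blocking its entry into the mitochondrion (log2 fold change 1.11, adjusted p = 0.00411). Of 12 genes that feeding raises, 1 was higher (Acaca, 1.13, adjusted p = 0.0378), 1 was lower and 10 did not pass. Acaca, which makes malonyl-CoA, lost its call without control replicate 2 or 3 or gSpns1-cKO replicate 1 or 3 (adjusted p = 0.0530 to 0.110). The summed CPM of the feeding list ran from 9360 to 27900 in control livers and from 7450 to 28200 in gSpns1-cKO livers, so these groups overlapped throughout. The part of the feeding state in the values of the 10 genes was not tested.

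**Figure D4:**
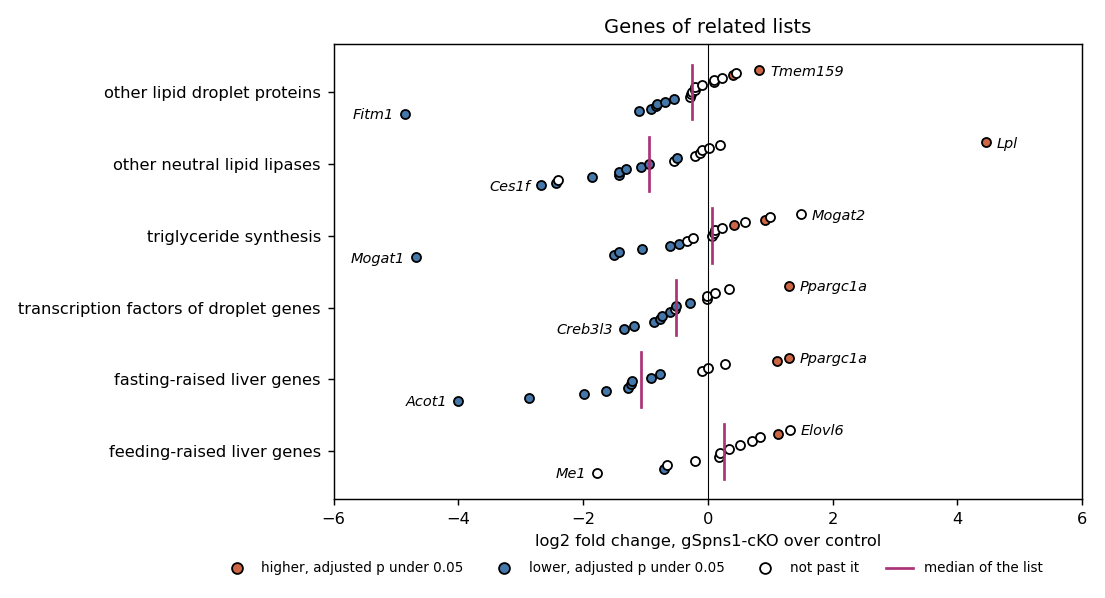
Log2 fold change of gSpns1-cKO over control for every tested gene of 6 related lists, 1 row of points per list, with orange points higher, blue points lower, open points not past the threshold and a purple line at the median. The lipase list spreads from Ces1f at -2.67 to Lpl at 4.46, and Fitm1, Mogat1 and Acot1 lie below -4.

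Cell type markers also differed between the groups, and the 10 genes are expressed in more than 1 cell type. All 12 macrophage markers were higher, with a summed level of 190 to 309 CPM in control livers and 827 to 1190 in gSpns1-cKO livers, among them Gpnmb (log2 fold change 6.84) and Trem2 (3.25), both typical of lipid-laden macrophages. Of the hepatocyte markers, 4 of 10 were lower and 6 did not pass, with a median log2 fold change of -0.44 (0.01 with library size only) and summed levels of 114000 to 123000 and 71900 to 83000 CPM. Alb, 1 of the lower markers, made up most of these sums, with means of 69300 and 41800 CPM. Among the 6 that did not pass, Cps1 was at 2830 and 3630 CPM, Trf at 1950 and 2450, and Ahsg at 6230 and 6190. The other markers moved upward, with 7 of 10 stellate cell markers higher (summed 344 to 401 against 697 to 786 CPM), 6 of 7 cholangiocyte markers (59.4 to 78.1 against 187 to 302 CPM) and 5 of 7 endothelial markers (141 to 158 against 208 to 255 CPM). Plin3 is made by most cell types, and Lpl by macrophages among others. The part of these marker differences in the levels of Plin3, Lpl and the genes that fell was not tested.

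White or brown fat cells express Cidea, Cidec, Pnpla2, G0s2, Plin4 and Lipe at high levels, so adipocyte markers were read in each library. Adipoq had at most 2 counts, Plin1, the perilipin of fat cells, at most 1, and Lep 0 counts in each of the 6 libraries. Of 10 adipocyte markers, 5 could be tested, of which Fabp4 was higher (log2 fold change 0.65, adjusted p = 0.00724), Cfd and Lipe were lower and 2 did not pass, with summed levels of 48.0 to 64.2 CPM in control livers and 28.7 to 31.3 CPM in gSpns1-cKO livers. The list holds Cidea, which is 1 of the 10 genes, and Lipe, so the sum is not a separate measure of fat cells. Mean CPM went from 24.6 to 6.83 for Lipe, 6.74 to 0.140 for Cidea and 5.17 to 0 for Cfd. Adrb3 was at 11.2 and 11.6 CPM, and Fabp4 at 7.18 and 11.3. Cfd, which encodes adipsin and is also made outside fat, fell from 236, 37 and 150 counts in the control group to 0 in each gSpns1-cKO liver (adjusted p = 0.0245). The control mean was 65.3-fold above a floor of 3 counts per gSpns1-cKO library. That value leaves out the spread of the control livers, which were at 8.39, 1.20 and 5.92 CPM. The call for Cfd was lost without control replicate 3 or any of the gSpns1-cKO mice (adjusted p = 0.0520 to 0.0789).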

How the data were processed

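RNA-Seq of whole liver was analysed for 3 control and 3 gSpns1-cKO mice, grouped by the sample labels. The authors deposited a table of counts per gene, whole numbers and not normalized, with FPKM values (counts per length and library total), a signal per group (mean scaled counts), and the log2 fold change and p-values of their own comparison. Only the counts, gene lengths and coordinates were used here. No columns of per-sample values were left unmapped. Per the submitters' processing notes, reads were handled with fastp, HISAT2 2.0.5 and featureCounts 1.5.0-p3 on mm10. Of 54409 genes found in GENCODE M21 (GRCm38), 98.3% had the same start and end, as did 9 of the 10 genes described.

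The tests used edgeR 4.0.16 under R 4.3.3. Low genes were dropped by filterByExpr on genotype, libraries were scaled by TMM, and groups were compared with glmQLFit (robust) and glmQLFTest without covariates, with Benjamini-Hochberg adjustment. The SE is the size of the log2 fold change over the square root of F. The fit was tested on simulated counts. Errors are SD over 3 mice. With 3 mice against 3 the smallest exact permutation p is 0.1, so edgeR's p-values rest on its model. The labels do not say how far the mice were independent (litter, cage), and p-values measure the spread between these samples. Shares and log2 ratios used counts per length with a pseudocount of 0.5 in the logs. Reads carry no molecular identifiers, so floors cover counting error only. Libraries of a group differed by more than sampling noise (chi-square per gene 42.5 to 126).

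The 10 genes and all lists (other droplet proteins, other lipases, triglyceride synthesis, transcription factors, genes raised by fasting and by feeding, and markers of adipocytes, macrophages, hepatocytes, stellate cells, cholangiocytes and endothelium) were chosen with earlier results of these data known. Named genes are the 10, Spns1, up to 4 genes per list past the threshold with the largest change and a mean of at least 1 CPM, and Plin1, Lipe, Mgll, Abhd5, Hilpda, Dgat1, Dgat2, Pparg and Ppara, plus the 3 genes nearest G0s2 in pattern. A gene that this rule selects is not reported here. Promoter sequences are from RefSeq (GRCm38.p6). Alternatives were DESeq2 1.42.0, limma-voom (limma 3.58.1), RLE size factors, library size only, upper-quartile scaling, filters of at least 1 count in any and at least 10 counts in every library, a threshold of 0.01, a replicate block, and each mouse left out.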

Additional observations from a re-analysis of the deposited data

How the results depend on the processing

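Of 78 recomputed log2 fold changes of the 10 genes under alternatives that kept all mice, 73 kept their direction and side of the threshold, 5 moved past the threshold and 0 reversed. Leaving out each mouse gave 1 to 2 higher and 5 to 7 lower among the 10 genes, and limma-voom gave 2 higher. The share of Plin2 reversed to -0.17 when counts were not divided by length. For Spns1, library size only gave -0.43 (adjusted p = 0.213) and upper-quartile scaling -0.74 (adjusted p = 0.0635, both from edgeR's quasi-likelihood test). Leaving out each mouse gave -1.18 to -0.68, with the call lost without control replicate 2, gSpns1-cKO replicate 1 or gSpns1-cKO replicate 3. Spns1 passed in DESeq2 (-0.88, adjusted p = 0.00108), in limma-voom (-0.90, adjusted p = 0.0123) and in edgeR with the replicate block (-0.90, adjusted p = 0.000679). With library size only, the lists had 6 droplet genes, 3 lipases, 6 synthesis genes, 4 transcription factors, 2 feeding genes and 2 hepatocyte markers higher, and 2 transcription factors, 0 feeding genes and 0 hepatocyte markers lower. A threshold of 0.01 left 0 droplet, 0 synthesis and 0 feeding genes higher, 0 feeding genes, 1 adipocyte marker and 2 hepatocyte markers lower, and 3 endothelial markers higher. Feeding genes lower were 2 in limma-voom and 0 with upper-quartile scaling. Adipocyte markers lower were 4 in DESeq2 and 1 with at least 10 counts in every library. Hepatocyte markers higher were 1 in DESeq2 and 1 with upper-quartile scaling. Leaving out each mouse gave 0 to 3 droplet, 1 to 2 synthesis and 0 to 2 feeding genes higher, and 0 to 1 feeding genes and 1 to 3 adipocyte markers lower. Reversals among companion genes were Abhd5 at 0.24 and Dgat2 at 0.11 with library size only, and Pparg at 0.43 with library size only, 0.12 with upper-quartile scaling, 0.03 with at least 10 counts in every library, and 0.07 to 0.09 without gSpns1-cKO replicate 1 or control replicate 1 (-0.08 at the lowest over all mice left out). The causes were not tested. The samples share replicate numbers, but the labels do not say that these mark pairs, and the main fit did not take them as pairs. The deviations of samples with the same number correlated by 0.04, 0.03 and -0.03, and 4 of 6 libraries correlated best with their own number. These values do not settle whether the numbers mark pairs. With the replicate number as a block, 3084 genes were higher and 3016 lower, 2 feeding genes were lower, and among the 10 genes only Plin5 and Cidea changed side of the threshold. At least 10 counts in every library gave no value for Cidea and Pnpla3. The identity of the proteins was not run. Depth limits Cidea and Mogat1, which lie near the floor in gSpns1-cKO livers.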

Other observations

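The genes whose pattern over the 6 libraries was nearest to that of G0s2, by the root mean square difference of centred log2 CPM, were Gm3839 (0.41), Serpine2 (0.49), which encodes a serine protease inhibitor, and E030018B13Rik (0.50). For Serpine2 the control counts were 909, 1598 and 1226 and the gSpns1-cKO counts 176, 180 and 173. These genes were picked for their likeness, so their values are a description.

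Pnpla5, a relative of Pnpla3 that lies beside it on chromosome 15, was counted 147, 4 and 6 times in the control group and 27, 1 and 11 times in the gSpns1-cKO group. It was chosen after its values were seen, because control liver 1 was again the highest of its group, as for Cidea, Cidec and Pnpla3. Its log2 fold change was -2.41 (adjusted p = 0.317, edgeR's quasi-likelihood test).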
